A study of Homo sapiens with 10 samples.

Results

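The 10 genes described here encode alpha- and beta-tubulin, and were taken by name from a gene expression table of 58174 genes. They are the alpha-tubulin genes TUBA1A, TUBA1B, TUBA1C and TUBA4A and the beta-tubulin genes TUBB, TUBB2A, TUBB2B, TUBB3, TUBB4B and TUBB6, and each symbol matched 1 row. RNA was sequenced from SH-SY5Y, an established catecholamine-making human neuroblastoma line that often stands in for neurons. For the knockdown, 3 siTDP-43 libraries came from cells given an siRNA pool against TDP-43 and 3 siControl libraries from cells given a control pool. Both pools were used at 50 nM for 96 h with Lipofectamin RNAiMAX. For the genotype, 2 libraries of cells homozygous for mutant TDP-43 N352S, made by genome editing, were set against 2 of cells labelled TDP-43 wild type. The replicates are given as biological, but no clone, passage or separate culture is named, so the p-values measure only how these libraries scatter. TDP-43, encoded by TARDBP, is a nuclear RNA-binding protein that prefers UG-rich RNA and is lost from the nucleus in amyotrophic lateral sclerosis.

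Alpha- and beta-tubulin form the heterodimer from which microtubules are built, the tracks that carry cargo along axons and the fibres of the mitotic spindle. The genes of each class, called isotypes, encode proteins that are alike in the folded core and differ most in the acidic C-terminal tail, which lies on the microtubule surface and carries most of its modifications. TUBB3 is the isotype found mainly in neurons and is used as a neuronal marker, and TUBA1A and TUBB2B are prominent in developing neurons. TUBB and TUBB4B are made in most cells, and TUBA4A is an alpha isotype that is mutated in some families with amyotrophic lateral sclerosis. Cells also tune tubulin mRNA: when free tubulin is in excess, the factor TTC5 reads the first residues of nascent tubulin on the ribosome and recruits the CCR4-NOT deadenylase through SCAPER, and the mRNA is degraded.

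The start of the coding sequence is shown because it encodes the residues that autoregulation reads. The first 12 coding bases of the principal GENCODE 29 transcript of each gene are given 5′ to 3′, with the start codon in lower case and the 3 codons after it in capitals.
TUBA1A: atgCGTGAGTGC
TUBA1B: atgCGTGAGTGC
TUBA1C: atgCGTGAGTGC
TUBA4A: atgCGTGAATGC
TUBB: atgAGGGAAATC
TUBB2A: atgCGCGAGATC
TUBB2B: atgCGTGAGATC
TUBB3: atgAGGGAGATC
TUBB4B: atgAGGGAAATC
TUBB6: atgAGGGAGATC
TUBA1A, TUBA1B and TUBA1C shared all 12 bases, TUBB shared them with TUBB4B, and TUBB3 shared them with TUBB6. TUBA4A, TUBB2A and TUBB2B each had a start that no other member had. Within each class these base differences are synonymous, so the encoded residues are the same for all alpha genes and for all beta genes.

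The end of the coding sequence is shown because it encodes the tail in which the isotypes differ most. The last 60 coding bases of TUBB2A and TUBB2B and the last 75 of TUBB3, stop codon included, begin at the same base once each whole coding sequence is aligned with that of TUBB2B. Capitals mark bases that differ from TUBB2B or have no counterpart in it.
TUBB2A: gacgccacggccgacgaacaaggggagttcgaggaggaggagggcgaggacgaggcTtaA
TUBB2B: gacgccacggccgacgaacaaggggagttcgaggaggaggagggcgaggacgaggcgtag
TUBB3: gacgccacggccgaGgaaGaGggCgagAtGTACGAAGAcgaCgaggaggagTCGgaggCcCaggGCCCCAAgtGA
TUBB2A differed from TUBB2B at 2 of the 60 bases, both in the last codons. These differences are synonymous, so both genes encode the same residues over this stretch. TUBB3 shared 46 aligned bases with TUBB2B, differed at 14 and had 15 more without a counterpart. Over the whole coding sequence, identity was 97.2% between TUBA1A and TUBA1B, 96.8% between TUBA1B and TUBA1C and 98.1% between TUBB2A and TUBB2B, and TUBB3 was 81.6% to 87.7% identical to the other beta genes. Of all windows of 50 bases in the principal transcript, 99.0% occurred in no other annotated gene for TUBB6 and 85.4% for TUBB4B. The share was 34.5% for TUBB2A, which had 60.3% of its windows in common with TUBB2B, 48.2% for TUBA1A and 12.9% for TUBA1B, which had 68.7% of its windows in common, on the opposite strand, with an antisense gene. It was lowest for TUBB3, at 10.6%, as 89.4% of its windows lie in the annotated readthrough gene AC092143.1. Values of TUBA1A, TUBA1B, TUBA1C, TUBA4A, TUBB, TUBB2A, TUBB2B and TUBB3 are therefore uncertain as far as the split of shared reads goes.

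Expression is given as TPM, a measure that divides reads by transcript length and scales every library to the same total, so levels of different genes can be set side by side but the sequencing depth is unknown. Fold changes are given as log2 of TPM + 1, a scale on which the change of low genes is understated, with the SE of the fit. A gene was called changed at a Benjamini-Hochberg adjusted p under 0.05 over all 17118 genes tested, from a limma fit of all 10 libraries. All 10 tubulin genes passed the minimum for testing, a mean of 1 TPM over the libraries. TUBA4A did so only through the genotype libraries, as its mean was 0.98 TPM in siControl and 0.32 TPM in siTDP-43.

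TARDBP, the siRNA target, was at 255.8 ± 0.43 TPM in siControl (SD, n = 3) and 64.35 ± 2.91 TPM in siTDP-43 (n = 3), and its mean was 200.46 TPM in wild type and 122.56 TPM in N352S. The 8 noradrenergic neuroblastoma markers examined were at 91.06 to 1686.9 TPM in every library. Of the defining markers of other cell types, KRT5 and CD3E were at 0 in all 10 libraries and SOX10 did not exceed 0.4 TPM. The 4 fibroblast markers summed to 34.07 to 35.26 TPM in siControl, 47.68 to 52.52 in siTDP-43, 23.19 to 39.99 in wild type and 14.84 to 15.74 in N352S. Mitochondrially encoded mRNA took 9.59% to 11.3% of TPM in siControl and 12.25% to 12.71% in siTDP-43, and 10.41% to 11.06% in wild type and 9.71% to 9.88% in N352S. With the mitochondrial genes left out and the rest rescaled, 8 tubulin genes were again called lower after knockdown, and the part of the fibroblast markers was not tested.

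SH-SY5Y cells expressed a tubulin pool made mostly of 3 genes. In siControl, TUBA1B was highest at 2399.93 ± 57.67 TPM (n = 3), followed by TUBB at 2090.19 ± 35.14 and TUBA1A at 2022.01 ± 98.63, and the libraries of TUBB and TUBA1A overlapped. TUBB3 came next at 439.59 ± 10.42 TPM, then TUBB2B at 411.8 ± 14.73, TUBB4B at 370.45 ± 7.74, TUBB2A at 133.21 ± 7.69 and TUBB6 at 50.04 ± 1.67. TUBA1C and TUBA4A were near the minimum for testing, at 2.59 ± 0.57 and 0.98 ± 0.12 TPM. Apart from TUBB and TUBA1A, no neighbours in this order overlapped between libraries, and the order of the means was the same in siTDP-43. In wild type, TUBA1A was above TUBA1B, with 2525.5 ± 17.72 against 2384.96 ± 20.54 TPM (n = 2), and TUBB3 reached 678.92 ± 10.92 TPM. In N352S, TUBA1B was above TUBA1A, and TUBA1C and TUBA4A overlapped in both genotype groups. Levels were not tested between the siRNA and genotype experiments. The 10 genes together took 0.684% to 0.837% of all TPM in a library.

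**Figure D1:**
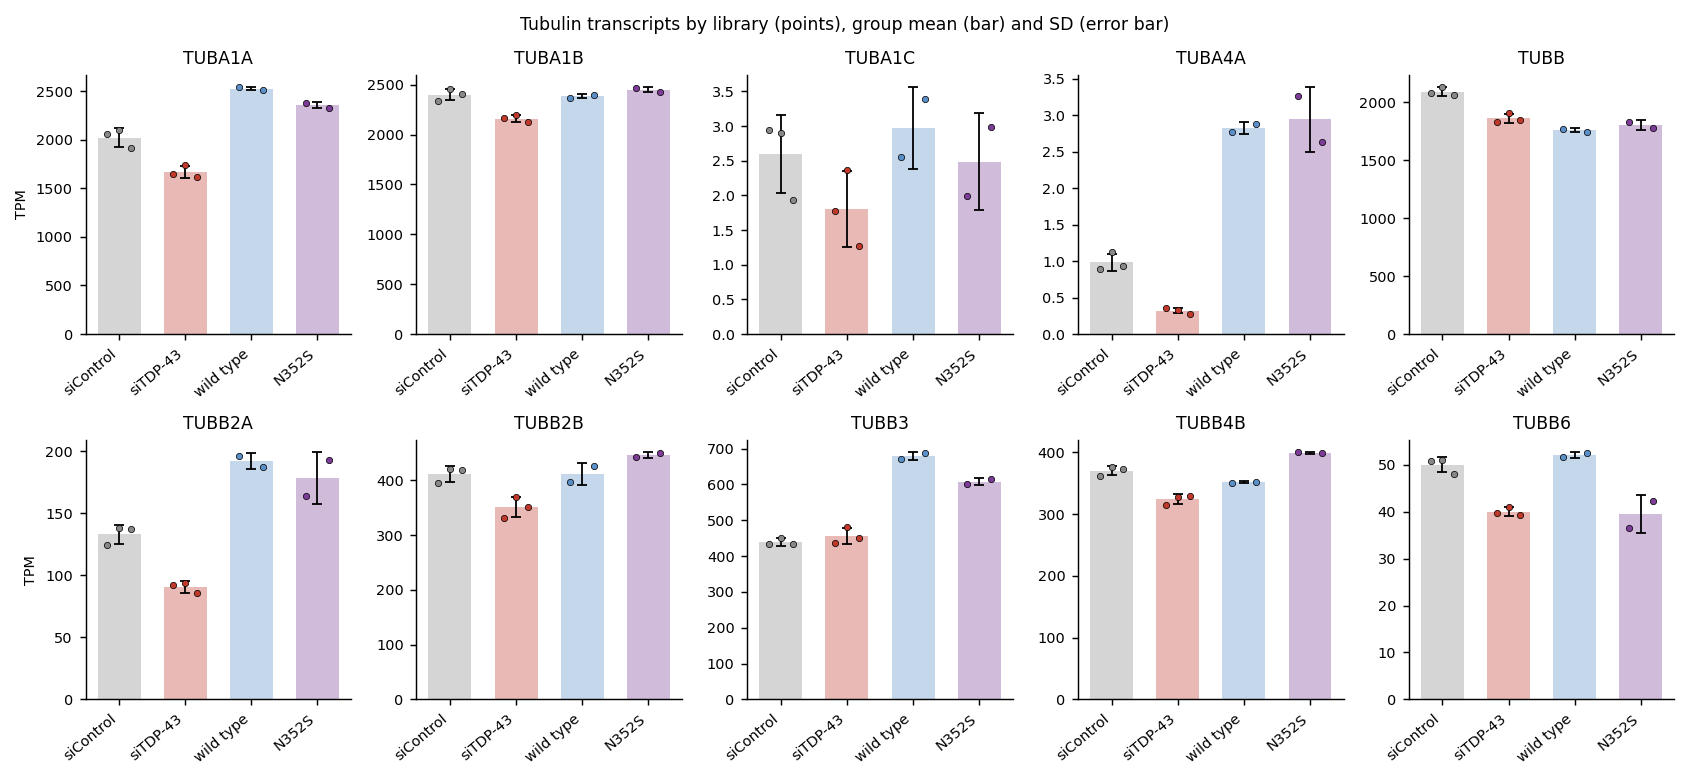
TPM of each of the 10 tubulin genes by group (siControl and siTDP-43, 3 libraries each; wild type and N352S, 2 libraries each); points are libraries, bars are group means and error bars are SDs, and each panel has its own axis from 0. The siTDP-43 points lie below every siControl point in all panels except TUBA1C and TUBB3.

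The first comparison asked how the loss of TDP-43 changed tubulin mRNA. After knockdown, 8 of the 10 genes fell and 0 rose by limma, with 0 also at an unadjusted p under 0.05. TUBA4A and TUBB2A fell most, to 32.9% and 68.0% of their control level. For TUBA4A that control level was a mean of 0.98 TPM, under the minimum for testing, which it met only through the genotype libraries. TUBB6 and TUBA1A fell to 80.0% and 82.5%, and TUBB2B, TUBB4B, TUBB and TUBA1B to between 85.3% and 90.0%. TUBB3, the neuronal isotype, was at 103.6% of control and did not pass the test, nor did TUBA1C. Of all 17118 genes tested, 19.8% were called lower and 6.19% called higher, 26.0% in all. The median log2 fold change was -0.25 over the 10 genes and -0.08 over all genes tested. Less tubulin mRNA per cell and fewer cells of a kind that makes much of it cannot be told apart in bulk RNA.

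TUBB2A (ENSG00000137267, hg38 chromosome 6, 3153669 to 3157526, minus strand), a neuronal beta isotype, was at 124.36, 138.25 and 137.03 TPM in siControl and at 92.04, 94.19 and 85.59 TPM in siTDP-43. Every siTDP-43 library was below every siControl library, which held for 8 of the 10 tubulin genes and for 31.7% of all genes tested (43.6% with either direction counted). The fold change was -0.55 ± 0.07 on the log2 scale (limma adjusted p = 0.00067). TUBB2B (ENSG00000137285, chromosome 6, 3224261 to 3231730, minus strand), its near-identical neighbour, was at 394.82, 421.16 and 419.41 TPM in siControl and 332.25, 369.2 and 351.94 TPM in siTDP-43, again without overlap. Its fold change was -0.23 ± 0.05 (adjusted p = 0.0077). The pair summed to 545.01 ± 22.42 TPM in siControl and 441.74 ± 19.89 TPM in siTDP-43, and TUBB2A's part of the sum was 24.43% and 20.53%. Reads from the 60.3% of TUBB2A windows that also occur in TUBB2B had to be divided between the genes upstream. The sum is not free of that division, since TPM divides by length and the principal transcripts have 1595 and 2020 bases.

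TUBA4A (ENSG00000127824, chromosome 2, 219249711 to 219278170, minus strand), the alpha isotype linked to amyotrophic lateral sclerosis, was low in all siRNA libraries. It was at 0.89, 1.12 and 0.94 TPM in siControl and 0.36, 0.33 and 0.28 TPM in siTDP-43, and the groups did not overlap. The fold change was -0.58 ± 0.12 on the log2 scale of TPM + 1 (limma adjusted p = 0.0082). The siRNA libraries with the same number correlated weakly once group means were subtracted. With the number as a block the adjusted p was 0.053, the only tubulin call that this changed. With pseudocounts of 0.1 and 5 in place of 1 the fold change was -1.35 and -0.17. STK16, a kinase gene whose exons overlap TUBA4A on the opposite strand, was at 27.35 TPM in siControl and 23.69 TPM in siTDP-43 (adjusted p = 0.061), and 27.4% of the TUBA4A windows occur in it. Whether counting used strand is not stated, and without it the reads of this stretch cannot be told apart.

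TUBA1A (ENSG00000167552, chromosome 12, 49184796 to 49189324, minus strand), the main alpha isotype of developing neurons, was at 2058.08, 2097.53 and 1910.43 TPM in siControl and 1645, 1742.35 and 1615.77 TPM in siTDP-43. The groups did not overlap, and the fold change was -0.28 ± 0.04 (limma adjusted p = 0.0022). TUBB6 (ENSG00000176014, chromosome 18, 12307669 to 12344320, plus strand), a beta isotype better known from non-neuronal cells, was at 50.9, 51.1 and 48.11 TPM in siControl and 39.66, 41.08 and 39.28 TPM in siTDP-43. It fell by 0.32 ± 0.06 on the log2 scale (adjusted p = 0.0035), and 99.0% of its 50-base windows occur in no other annotated gene, the highest share of the 10. TUBA1A, TUBB2A and TUBB6 were called lower under all 23 alternatives run for this comparison. AFG3L2, a mitochondrial protease gene that overlaps TUBB6 on the opposite strand, was at 43.9 and 39.92 TPM and did not pass the test (adjusted p = 0.24).

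The abundant isotypes TUBA1B, TUBB and TUBB4B fell by smaller amounts. TUBB (ENSG00000196230, chromosome 6, 30720201 to 30725426, plus strand), the most abundant beta isotype, was at 2075.88, 2130.23 and 2064.46 TPM in siControl and 1831.56, 1905.06 and 1840.96 TPM in siTDP-43, a fold change of -0.17 ± 0.03 (limma adjusted p = 0.0049). TUBA1B (ENSG00000123416, chromosome 12, 49127782 to 49131397, minus strand), a widely expressed alpha isotype, was at 2340.61, 2455.79 and 2403.39 TPM in siControl and 2161.2, 2191.5 and 2128.74 TPM in siTDP-43, a fold change of -0.15 ± 0.03 (adjusted p = 0.0078). TUBB4B (ENSG00000188229, chromosome 9, 137241213 to 137243707, plus strand), a widely expressed beta isotype also used in cilia, was at 361.79, 376.69 and 372.88 TPM in siControl and 314.34, 328.03 and 329.13 TPM in siTDP-43, a fold change of -0.19 ± 0.03 (adjusted p = 0.0021). In each of the 3 genes, all siTDP-43 libraries lay below all siControl libraries. Some of these calls depended on how libraries were scaled. With median-of-ratios scaling, which moved the median of all genes from -0.08 to 0, 5 of the 10 genes were called lower, and TUBA1B, TUBB and TUBB2B were not (log2 fold changes of -0.07, -0.08 and -0.14; adjusted p = 0.2, 0.11 and 0.053). Of all calls, 76.2% were lower as deposited and 51.8% with that scaling. Without a filter on low genes TUBA1B was not called (-0.15; adjusted p = 0.055). With the quantile method, TUBB2B and TUBB4B lost their calls (-0.13 and -0.09; adjusted p = 0.087 and 0.1).

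TUBB3 (ENSG00000258947, chromosome 16, 89921392 to 89938761, plus strand) was at 434.66, 451.56 and 432.56 TPM in siControl and at 435.69, 480.52 and 450.05 TPM in siTDP-43. The groups overlapped, and the fold change was 0.05 ± 0.04 with a 95% interval of -0.04 to 0.14 (limma adjusted p = 0.4). The quantile method alone called it higher (0.16; adjusted p = 0.036). Next to TUBB3 on the same strand lies MC1R, the melanocortin receptor gene, and the annotated readthrough gene AC092143.1 runs from MC1R into TUBB3. MC1R rose from 5.79 ± 0.2 to 20.84 ± 1.88 TPM (log2 fold change 1.68 ± 0.07; adjusted p = 3.3e-06). The readthrough gene was at 1.41, 0.4 and 0 TPM in siControl and 1.88, 1.9 and 0 TPM in siTDP-43, below the minimum for testing, and it contains 89.4% of the TUBB3 windows. TUBA1C (ENSG00000167553, chromosome 12, 49188736 to 49274603, plus strand), from the same alpha cluster, ranged from 1.94 to 2.94 TPM in siControl and from 1.27 to 2.36 TPM in siTDP-43, with overlap. Its fold change was -0.36 ± 0.19 with a 95% interval of -0.80 to 0.08 (adjusted p = 0.21).

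**Figure D2:**
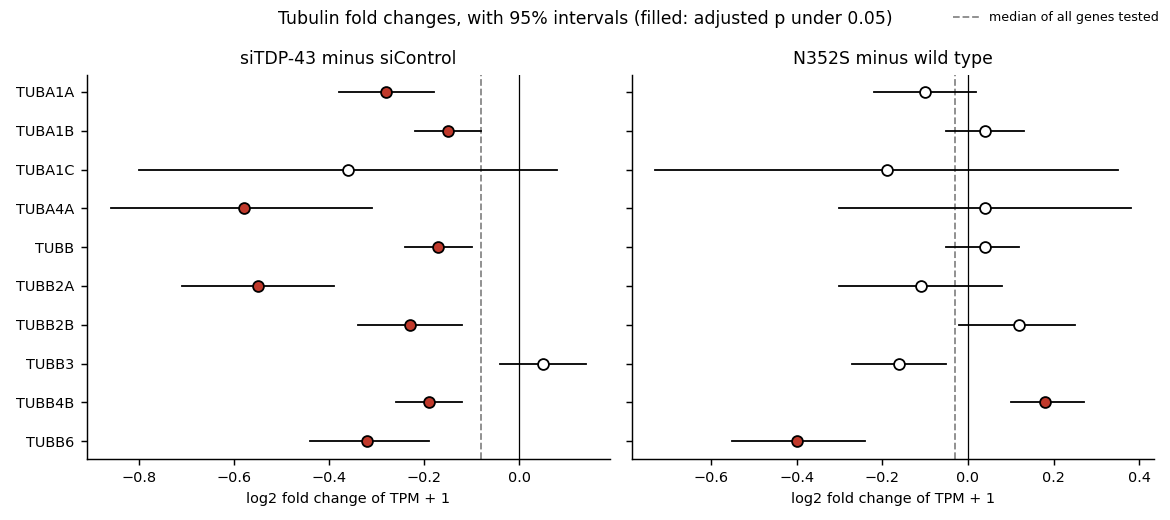
Fold change of each tubulin gene on the log2(TPM + 1) scale for siTDP-43 minus siControl (left) and N352S minus wild type (right); points are estimates, lines are 95% intervals, filled points have an adjusted p under 0.05, the solid line marks 0 and the dashed line the median of all 17118 genes tested. After knockdown 8 points are filled and lie left of 0, while in N352S the filled points are TUBB6 to the left and TUBB4B to the right.

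As deposited, the sums of both classes were lower in every siTDP-43 library than in any siControl library, and TUBB3 took a larger part of the beta pool. The summed TPM of the 4 alpha genes was 4425.52 ± 121.96 in siControl and 3830.31 ± 97.12 in siTDP-43, a difference of -13.4%. The 6 beta genes summed to 3495.28 ± 65.81 and 3120.19 ± 88.59, a difference of -10.7%. Neither sum overlapped between groups, and the exact permutation test gave p = 0.1 for each (two-sided), the smallest that 3 against 3 libraries allow. The log2 differences were -0.208 for alpha and -0.164 for beta, and with median-of-ratios scaling they were -0.122 and -0.078. With the quantile method the alpha difference was -0.333. The ratio of alpha to beta was 1.27 and 1.23 (exact p = 0.2).

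TUBB3 made up 12.63%, 12.65% and 12.45% of beta-tubulin TPM in siControl and 14.31%, 14.93% and 14.53% in siTDP-43. TUBB2A made up 3.61%, 3.87% and 3.94% in siControl and 3.02%, 2.93% and 2.76% in siTDP-43. TUBB6 made up 1.43 ± 0.05% and 1.28 ± 0.02%. The shares of these 3 isotypes did not overlap between groups (exact permutation p = 0.1 for each, two-sided), with TUBB3 higher and the other two lower in siTDP-43. The ratio of TUBB3 to TUBB2A was 3.5, 3.27 and 3.16 in siControl and 4.73, 5.1 and 5.26 in siTDP-43. The shares of TUBB (59.8 ± 0.45% and 59.59 ± 0.49%), TUBB2B (11.78 ± 0.3% and 11.25 ± 0.3%) and TUBB4B (10.6 ± 0.12% and 10.38 ± 0.22%) overlapped between groups. Within alpha-tubulin, TUBA1A made up 45.68 ± 1.28% in siControl and 43.53 ± 0.63% in siTDP-43, and TUBA1B 54.24 ± 1.29% and 56.42 ± 0.65%, with overlap (exact p = 0.2 for both). Shares within a class do not depend on the scaling of a library as a whole, and they rise for a gene that stays level while the others fall.

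**Figure D3:**
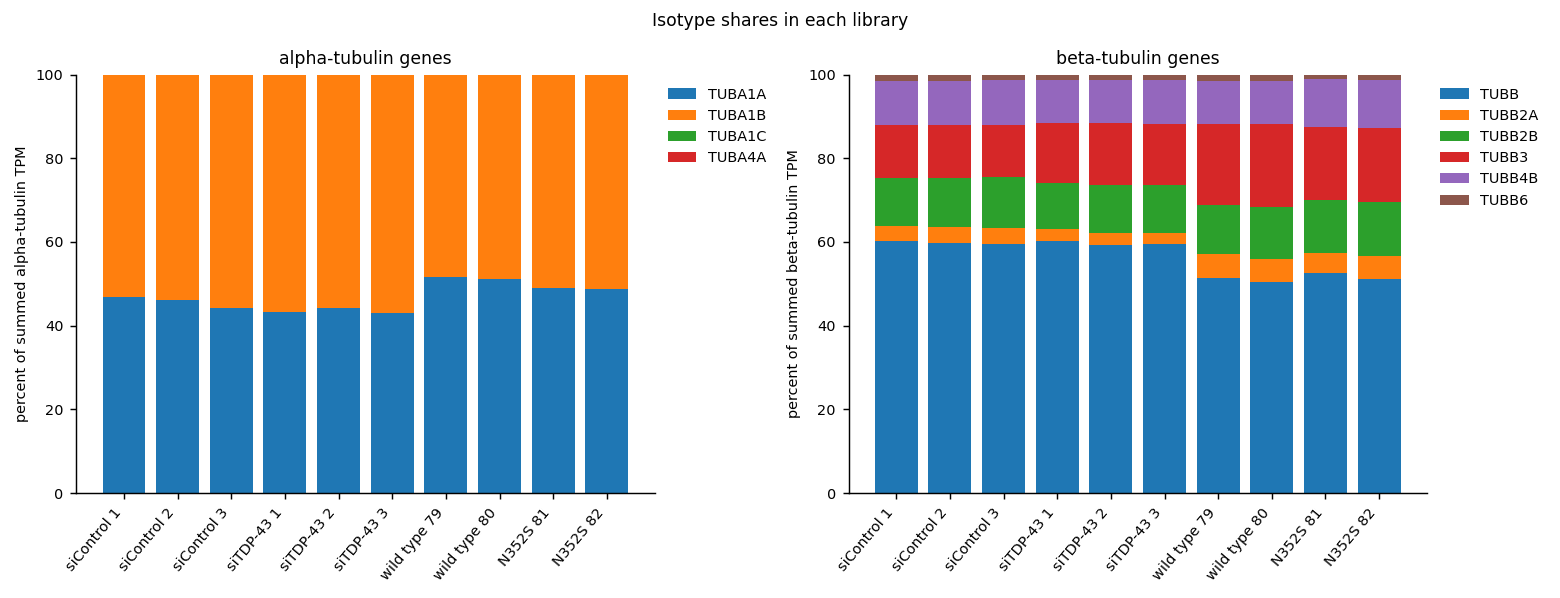
Percent of the summed alpha-tubulin TPM (left) and beta-tubulin TPM (right) taken by each gene in each of the 10 libraries; bars are single libraries and sum to 100, and TUBA1C and TUBA4A are too small to see. TUBB3 takes 12.45% to 12.65% in siControl, 14.31% to 14.93% in siTDP-43, 19.53% to 19.9% in wild type and 17.28% to 17.71% in N352S.

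The second comparison asked how the N352S genotype changed tubulin mRNA. With 2 libraries a group, 1 gene rose (TUBB4B), 1 fell (TUBB6) and 8 did not pass the test. Of all genes tested, 8.28% were called higher and 11.9% lower in N352S, 20.2% in all. In 7 of the 10 the genotype groups did not overlap, 4 of them higher and 3 lower in N352S, against 60.1% of all genes tested in this comparison of 2 against 2, 25.4% higher and 34.7% lower. The median log2 fold change was -0.03 over the 10 genes and -0.03 over all genes.

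TUBB6 was at 51.66 and 52.5 TPM in wild type and 36.58 and 42.34 TPM in N352S, or 75.8% of wild type. Its fold change was -0.40 ± 0.07 (limma adjusted p = 0.0039), and it was called lower in both comparisons. In a fit of the genotype libraries alone the adjusted p was 0.052. TUBB4B was at 350.3 and 352.68 TPM in wild type and 399.94 and 398.37 TPM in N352S, or 113.6% of wild type. Its fold change was 0.18 ± 0.04 (adjusted p = 0.0091), against a fall after knockdown. Without wild type library 79 the fold change was 0.18 and the adjusted p 0.057. In both genes the genotype groups did not overlap.

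TUBB3 was at 671.19 and 686.64 TPM in wild type and 600.5 and 614.85 TPM in N352S. The groups did not overlap, and the fold change was -0.16 ± 0.05 (limma adjusted p = 0.0505), just short of the threshold. It was called lower in 7 of 22 alternatives, among them the fits without siControl library 3 (adjusted p = 0.049), siTDP-43 library 1 (0.046) and siTDP-43 library 2 (0.032), which enter only through the shared estimate of the spread. TUBA1A was at 2538.03 and 2512.97 TPM in wild type and 2376 and 2330.69 TPM in N352S, without overlap (-0.10 ± 0.05; adjusted p = 0.23). TUBB2B was at 398.06 and 426.6 TPM in wild type and 442.84 and 450.19 TPM in N352S, also without overlap (0.12 ± 0.06; adjusted p = 0.2). TUBB2A was at 196.55 and 187.37 TPM in wild type and 163.77 and 193.23 TPM in N352S, and the groups overlapped. Its fold change was -0.11 with a 95% interval of -0.30 to 0.08, and N352S library 81 lay below both wild type libraries while library 82 lay between them. TUBB was at 1768.45 and 1744.13 against 1831.38 and 1772.47 TPM, and TUBA1B at 2370.43 and 2399.48 against 2469.24 and 2430.63 TPM. Neither overlapped between groups, and both had a fold change of 0.04, with intervals of -0.05 to 0.12 for TUBB and -0.05 to 0.13 for TUBA1B.

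The minor alpha genes did not pass the test. TUBA4A was at 2.77 and 2.88 TPM in wild type and 3.26 and 2.63 TPM in N352S (0.04; interval -0.30 to 0.38), and TUBA1C at 2.55 and 3.39 against 1.99 and 2.98 TPM (-0.19; interval -0.73 to 0.35).

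In the beta-tubulin pool, TUBB3 made up 19.53% and 19.9% in wild type and 17.28% and 17.71% in N352S. TUBB4B made up 10.19% and 10.22% in wild type and 11.51% and 11.48% in N352S. TUBB2B (11.97 ± 0.55% and 12.86 ± 0.16%) and TUBB6 (1.51 ± 0.01% and 1.14 ± 0.12%) also had shares without overlap, while TUBB (51.01 ± 0.64% and 51.88 ± 1.16%) and TUBB2A (5.58 ± 0.2% and 5.14 ± 0.6%) overlapped. For the shares without overlap the exact permutation p was 0.333, the smallest that 2 against 2 libraries allow (two-sided). TUBA1A's share of alpha-tubulin was 51.65% and 51.09% in wild type and 48.98% and 48.89% in N352S. The sums were nearly level, with 4916.25 ± 3.49 against 4808.71 ± 59.09 TPM for alpha and 3443.06 ± 9.69 against 3473.23 ± 2.52 TPM for beta.

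The knockdown and genotype effects differed for 7 of the 10 genes when the difference itself was tested. Among them, TUBA4A met the minimum for testing only through the genotype libraries, and its difference was not called with a pseudocount of 5. TUBB4B differed most clearly, by -0.38 ± 0.05 (knockdown effect minus N352S effect; limma adjusted p = 0.00079), and kept this call in all 21 alternatives. TUBB2B (-0.35; adjusted p = 0.011), TUBB2A (-0.44; adjusted p = 0.02), TUBB (-0.21; adjusted p = 0.019), TUBA1B (-0.19; adjusted p = 0.025) and TUBA4A (-0.62; adjusted p = 0.048) also had the lower effect after knockdown. TUBB3 had the higher effect after knockdown (0.21; adjusted p = 0.045). Of all genes tested, 13.8% had a lower and 8.2% a higher effect after knockdown by the same rule, 22.0% in all. With median-of-ratios scaling or with mitochondrial genes left out, the differences of TUBB and TUBA1B were not called. That of TUBB2B was not called with the quantile method. TUBA1A (-0.18; adjusted p = 0.11), TUBA1C (-0.17; adjusted p = 0.75) and TUBB6 (0.08; adjusted p = 0.57, interval -0.12 to 0.28) did not pass. Only the TUBB4B difference was called whichever library was left out.

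Genes that overlap the tubulin genes bear on how their reads were counted. AC011603.2, an antisense gene that shares 1309 exon bases with TUBA1B on the opposite strand, ranged from 7.74 to 744.78 TPM over the 10 libraries. It was at 664.57, 469.52 and 7.74 TPM in siControl, 524.09, 551.79 and 384.41 in siTDP-43, 402.25 and 261.4 in wild type and 744.78 and 623.05 in N352S. Library 3 of siControl stood far below the others, while TUBA1B in that library, at 2403.39 TPM, lay between the other two. TUBA1B and this gene together were at 3005.18, 2925.31 and 2411.13 TPM in siControl and 2685.29, 2743.29 and 2513.15 TPM in siTDP-43. With antisense rows added to the gene they overlap, an alternative chosen after these values were seen, the TUBA1B fold change was -0.07 after knockdown (limma adjusted p = 0.59) and 0.21 in N352S (adjusted p = 0.17). The call of TUBA1B after knockdown was not kept under that addition. TPM divides by length, so adding TPM is not a recount of the reads.

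AL662797.1, antisense to TUBB over 538 exon bases, was at 113.51, 39.95 and 18.99 TPM in siControl and 77.95, 27.02 and 22.93 TPM in siTDP-43. Library 1 was highest in both groups, and the groups overlapped. With its TPM added, TUBB was still called lower after knockdown (-0.18; limma adjusted p = 0.011). The tubulin pseudogenes, 4 alpha and 33 beta rows, summed to 6.12 to 11.78 TPM for alpha and 5.09 to 19.29 TPM for beta, small against the genes themselves. PSMG4, a proteasome assembly gene that overlaps the far end of TUBB2B on the opposite strand, rose after knockdown from 17.08 to 21.1 TPM (0.29 ± 0.07; adjusted p = 0.017), opposite to TUBB2B. FAM166A, which overlaps TUBB4B, and TUBA4B, which overlaps TUBA4A, had group means of 0.58 TPM or less.

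**Figure D4:**
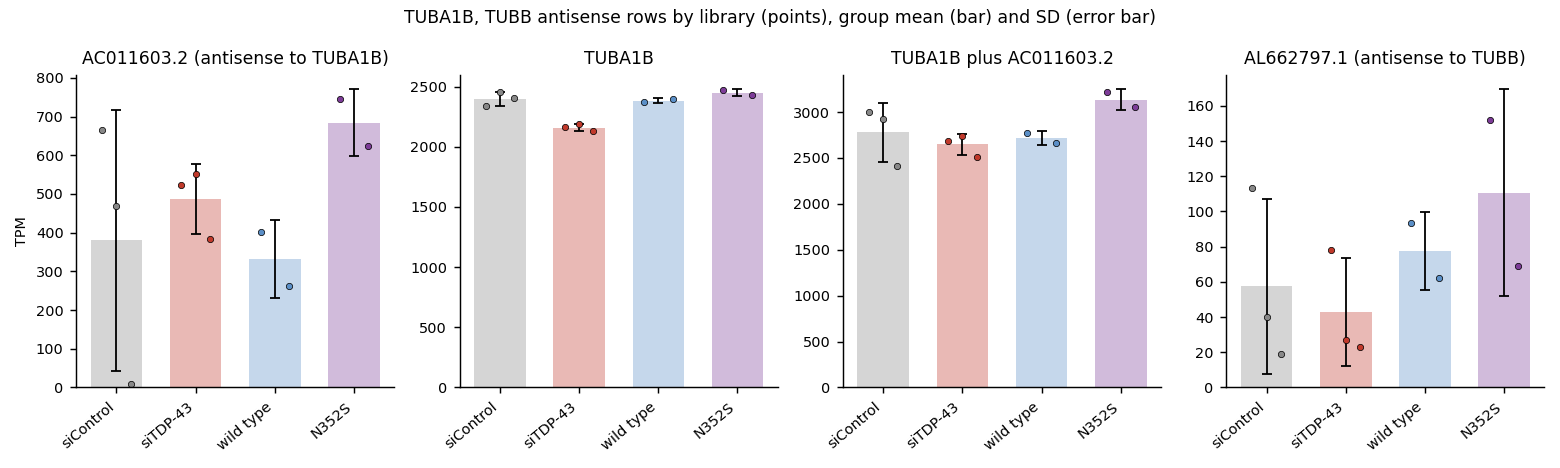
TPM by group of AC011603.2 (antisense to TUBA1B), of TUBA1B, of their sum, and of AL662797.1 (antisense to TUBB); points are libraries, bars are group means and error bars are SDs, with axes from 0. AC011603.2 spans 7.74 to 744.78 TPM, and the TUBA1B difference between siControl and siTDP-43 is no longer separate in the sum.

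Genes that act on tubulin, other tubulins and a set of proliferation genes were examined as lists. Of 82 listed genes, 75 were tested, and 3 rose and 30 fell after knockdown (against 6.19% and 19.8% of all genes tested). With median-of-ratios scaling 8 rose, and without siControl library 1, siTDP-43 library 2 or siTDP-43 library 3 the number was 1. In N352S, 7 of the 75 rose and 8 fell (9.33% and 10.7%), near the 8.28% and 11.9% of all genes tested. Without wild type library 79, wild type library 80, N352S library 81 and N352S library 82, 3, 3, 2 and 4 rose, and without wild type library 79, wild type library 80 and N352S library 82, 5, 5 and 4 fell. With the replicate number as a block, the knockdown counts moved by over 1.5 times for 3 lists: 1 other tubulin fell, 2 genes of the gamma-tubulin ring complex fell, and 0 genes that modify tubulin rose.

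Among the 21 genes of tubulin folding, 12 fell and 1 rose after knockdown (57.1% lower, against 19.8% of all genes; median -0.17). The number that fell was 7 without siTDP-43 library 3, 5 with median-of-ratios scaling and 6 with the quantile method, and 3 rose under each of these 2 scalings. With mitochondrial genes left out or without siTDP-43 library 1, 2 rose. TBCD, a cofactor that assembles the heterodimer, fell from 95.24 to 71.16 TPM (limma adjusted p = 0.00017), CCT5, a subunit of the CCT chaperonin, from 393.06 to 344.75 TPM (adjusted p = 0.0018), and the prefoldin subunit VBP1 from 94.37 to 73.3 TPM (adjusted p = 0.0024). PFDN5, another prefoldin subunit, rose from 380.11 to 427.37 TPM (adjusted p = 0.0043; chosen after its value was seen). In N352S, 4 folding genes fell (19.0%, against 11.9% of all genes tested), led by the chaperonin subunits CCT5 (351.06 to 295.83 TPM; adjusted p = 0.0015), CCT2 (274.6 to 225.88; adjusted p = 0.0058) and CCT3 (445.36 to 385.16; adjusted p = 0.011). Without wild type library 80 or N352S library 82, 2 folding genes fell.

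Of 18 tested genes that modify tubulin, 6 fell (33.3%, against 19.8% of all genes) and 1 rose after knockdown. The gene that rose was AGBL5, a tubulin deglutamylase (45.24 to 50.29 TPM; limma adjusted p = 0.049; chosen after its value was seen). The number that rose was 0 without a filter, in a fit of only the groups compared, without a trend, with robust settings and without any single library other than siControl library 2, and 3 with median-of-ratios scaling or the quantile method. VASH1, which removes the C-terminal tyrosine of alpha-tubulin, fell from 41.51 to 29.05 TPM (limma adjusted p = 0.00021). AGTPBP1, which trims glutamates from the tail, fell from 35.71 to 26.24 TPM (adjusted p = 0.00063), and HDAC6, a tubulin deacetylase, from 44.39 to 30.9 TPM (adjusted p = 0.00094). In N352S, 4 of these genes rose and 1 fell (22.2% higher, against 8.28% of all genes). The number that rose was 1 without wild type library 80 or N352S library 81, and 2 without wild type library 79, N352S library 82 or any 1 siTDP-43 library, in a fit of only the groups compared and without a filter. With a minimum of 5 TPM, with mitochondrial genes left out or without siTDP-43 library 2, 2 fell. VASH1 again fell, from 39.55 to 21.66 TPM (adjusted p = 2.9e-05), while AGTPBP1 rose from 32.15 to 41.68 TPM (adjusted p = 0.0047) and AGBL5 from 49.66 to 59.82 TPM (adjusted p = 0.014). The AGTPBP1 effects differed between the comparisons by -0.79 ± 0.08 (adjusted p = 0.00027).

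Of the 12 genes of tubulin mRNA autoregulation, 3 fell and 1 rose after knockdown (25.0% and 8.33%, against 19.8% and 6.19% of all genes tested). CNOT7, a deadenylase of CCR4-NOT, fell from 162.82 to 130.15 TPM (limma adjusted p = 0.00053), CNOT6L from 13.05 to 10.23 TPM (adjusted p = 0.0092) and CNOT10 from 48.93 to 39.83 TPM (adjusted p = 0.021). CNOT6, another deadenylase, rose from 45.88 to 52.83 TPM (adjusted p = 0.022; chosen after its value was seen). The number that rose was 0 without siControl library 1, siTDP-43 library 2 or siTDP-43 library 3, and 2 without siTDP-43 library 1 or with any of the 3 other scalings. In N352S, 3 fell (25.0%, against 11.9% of all genes tested). They were CNOT7 from 131 to 105.43 TPM (adjusted p = 0.002), CNOT2 from 66.08 to 54.07 TPM (adjusted p = 0.0093) and TTC5, which reads nascent tubulin, from 15.37 to 11.84 TPM (adjusted p = 0.035). Without wild type library 79, without N352S library 82 or in a fit of only the groups compared, 1 fell. Among 7 tested genes of the other tubulins, TUBB4A (8.27 to 5.9 TPM; adjusted p = 0.0031) and TUBG1, the gamma-tubulin of microtubule nucleation (88.86 to 80.67 TPM; adjusted p = 0.026), fell after knockdown (28.6%, against 19.8% of all genes tested). Only 1 of the list fell with any of the 3 other scalings, without a trend, in a fit of only the groups compared, or without siControl library 1 or 2 or siTDP-43 library 1 or 3. In N352S, TUBG1 (79.6 to 92.56 TPM; adjusted p = 0.011) and TUBG2 (14.3 to 19.22 TPM; adjusted p = 0.027) rose (28.6%, against 8.28% of all genes tested). The number that rose was 0 without wild type library 79, wild type library 80 or N352S library 81, and 1 without N352S library 82 or without a filter. Of the 9 genes of the gamma-tubulin ring complex, TUBGCP4 alone fell after knockdown (27.27 to 21.4 TPM; adjusted p = 0.0089), or 11.1%, against 19.8% of all genes tested. For this list limma called 0 in N352S, where 1 was higher and 2 were lower at an unadjusted p under 0.05. With the quantile method 0 fell after knockdown, and without siControl library 3, 1 fell in N352S.

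Of 8 proliferation genes (median -0.29), 6 fell after knockdown (75.0%, against 19.8% of all genes tested). Among them were MKI67 (101.07 to 75.38 TPM; limma adjusted p = 0.00013), CCNB2 (84.79 to 65.73 TPM; adjusted p = 0.0004) and CCNB1 (240.15 to 177.06 TPM; adjusted p = 0.00047). In N352S, TOP2A alone was called and rose (128.02 to 162.38 TPM; adjusted p = 0.003), or 12.5% of the list, against 8.28% of all genes tested. The part of proliferation in the tubulin differences was not tested.

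**Figure D5:**
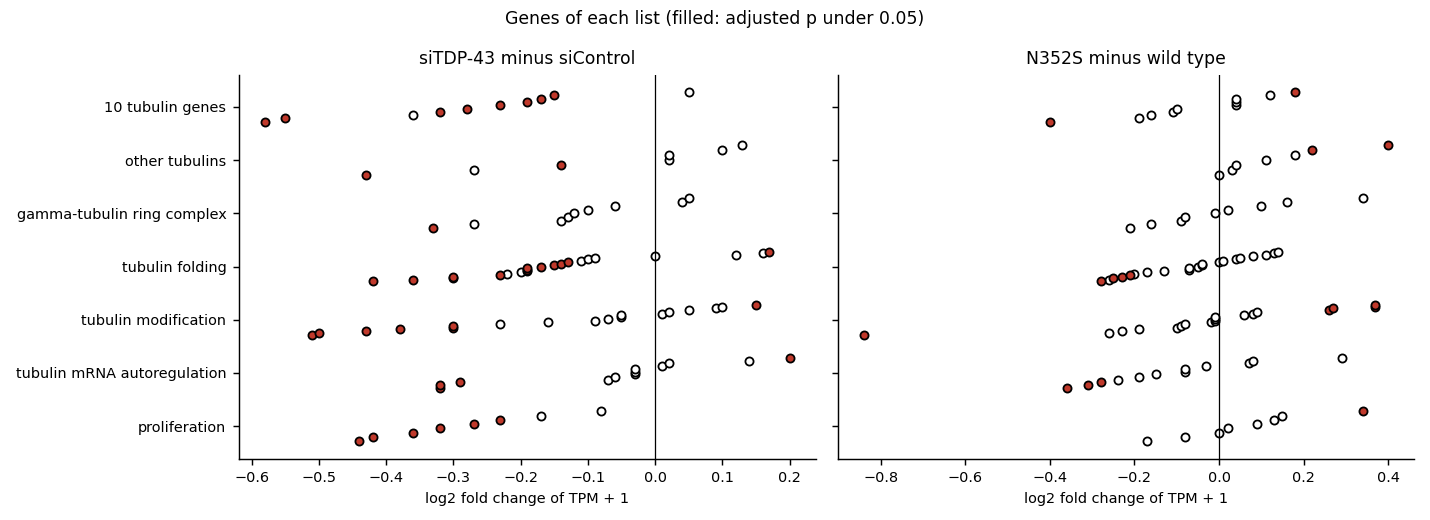
Fold change on the log2(TPM + 1) scale of each tested gene in the 7 groups of genes, for siTDP-43 minus siControl (left) and N352S minus wild type (right); filled points have an adjusted p under 0.05, and points are shifted vertically by order of fold change. On the left most filled points lie below 0 in each row; on the right VASH1 stands lowest, at -0.84.

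The chromosomal neighbours of the tubulin genes gave a local background. For every member but TUBB3, 20 tested protein-coding genes were taken, equally from both sides and with members left out. The windows ran from 0.4 Mb at TUBB3, which had 14 neighbours, to 4.97 Mb at TUBB2A and TUBB2B. The median log2 fold change after knockdown was -0.13 around the alpha genes of chromosome 12, around TUBB2A and TUBB2B and around TUBB6. It was -0.18 around TUBA4A, -0.09 around TUBB, 0.04 around TUBB4B and 0 around TUBB3. Lower and higher calls after knockdown numbered 8 and 0 around TUBB6, 7 and 0 around TUBA4A, and 6 and 3 around TUBB2A and TUBB2B. They numbered 5 and 2 around the alpha genes of chromosome 12, 4 and 2 around TUBB4B and 2 and 0 around TUBB. Around TUBB3 they numbered 0 and 3. Of all genes tested, 19.8% were called lower and 6.19% higher.

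Sequence features were read without a test. TGTGTG, the DNA form of the UG repeat that TDP-43 prefers, was searched on the sense strand in the last 1500 bases of each principal transcript. It occurred 1 time each in TUBA1A, TUBA1B, TUBA1C, TUBB3 and TUBB4B, and in 49.7% of 11007 transcripts of tested genes. It was in neither TUBB2A nor TUBA4A in that window, and the longest TG run in any member was 6 bases, with introns not read.

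Upstream sequence was read for all 10 genes from RefSeq promoters (GRCh38.p14), of which 1 is shown, that of TUBB2A, because it fell most among the genes above 10 TPM and because no annotated exon lies in the 250 bases before its start. Of the 15 RefSeq starts of the 10 genes, 12 had a GENCODE 29 exon within those 250 bases, so most windows hold annotated exon sequence upstream of the start. The 100 bases before the start at chr6:3157545-3157644, minus strand, have the TATAAA motif in capitals, beginning 30 bases before the start.
TUBB2A: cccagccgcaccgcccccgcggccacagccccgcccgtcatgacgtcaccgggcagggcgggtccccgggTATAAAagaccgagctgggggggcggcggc
Over the 300-base windows, searched on both strands, TATAAA occurred in TUBB2A alone of the 10 genes, and in 11.5% of 35116 promoters. TATATA, which can overlap TATAAA, occurred in TUBA1A, TUBB4B and a TUBA1C start, and in 4.0% of promoters. TGACGTCA, the cyclic AMP response element, occurred in TUBB2A alone of the 10 and in 1.8% of promoters. CCAAT occurred in 34.6% of promoters and GGGCGG, the GC box, in 45.0%, and TUBB2A had 5 GC boxes and no CCAAT. The motifs were chosen after the sequences were seen.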

How the data were processed

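The authors deposited 1 table of TPM per gene, to 2 decimals. The submitters' processing notes name STAR, RSEM and hg38. Program versions, the gene annotation and the strand setting were not given in the sources used here. Per the labels' protocols, Trizol was used for extraction and an Illumina TruSeq RNA kit for the libraries. TPM keep no depth, so no counting interval could be given.

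Positions and transcripts came from GENCODE 29, which holds 57836 of the 58174 gene identifiers (99.4%). Of the rows, 17118 averaged 1 TPM or more and were analysed as log2(TPM + 1). Group means of the 4 groups were fitted with limma 3.58.1 under R 4.3.3, using eBayes with a trend. The fit has 6 residual degrees of freedom and takes the spread of the genotype groups to be that of the siRNA groups. It gave the knockdown effect, the N352S effect and their difference, each adjusted over all genes tested by the Benjamini-Hochberg method. The fit was also run on simulated data. The planted changes were larger than most of the tubulin changes, so the simulation did not cover changes that small. Shares and sums were compared by exact two-sided permutation tests. Values after ± are SDs, and SEs after fold changes.

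Library numbers in the titles run from 1 to 3 in both siRNA groups. Once group means were subtracted, libraries with the same number correlated at 0.34, 0.14 and 0.20, all above 0.1, so an alternative fit used the number as a block. Libraries with different numbers correlated at -0.27 to 0.091. No pairing was possible between libraries 79 and 80 (wild type) and 81 and 82 (N352S).

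Named genes are the 10 members, TARDBP, MC1R, genes overlapping a member, and up to 3 called genes per list and comparison by smallest adjusted p. The members and lists were chosen with earlier results of these data known. Alternatives changed the pseudocount (0.1, 5), the minimum (none, 5 TPM), the scaling (median of ratios, quantile, mitochondrial genes left out), the fit (compared groups alone, no trend, robust, block) or left out a library. Adding antisense or pseudogene rows was chosen after seeing the data. Sequences came from GENCODE 29 transcripts and RefSeq promoters, and all 10 genes matched. Some sequences are not reported here. Figures used matplotlib 3.10.9.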

Additional observations from a re-analysis of the deposited data

Results flagged for a closer look

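The knockdown and N352S effects differed for 7 tubulin genes by the limma test of the difference itself (knockdown effect minus N352S effect, log2 scale). TUBB4B differed by -0.38 (adjusted p = 0.00079), lower in 3 of 3 siTDP-43 libraries and higher in 2 of 2 N352S libraries than in any control, and its adjusted p ranged from 0.00065 to 0.017 over 21 alternatives.

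TUBB2B differed by -0.35 (adjusted p = 0.011), and without wild type library 79 by -0.30 (0.052). TUBB2A differed by -0.44 (adjusted p = 0.02), without wild type library 80 by -0.41 (0.072) and without N352S library 82 by -0.32 (0.058). TUBB differed by -0.21 (adjusted p = 0.019), and without siTDP-43 library 3 the adjusted p was 0.0502. Without wild type libraries 79 and 80 and N352S library 81 the TUBB difference was -0.22, -0.2 and -0.18. It was -0.15 with median-of-ratios scaling (adjusted p = 0.066) and -0.16 without mitochondrial genes (0.057). Without a filter or without a trend its adjusted p was 0.084 and 0.057. With the quantile method TUBB2B differed by -0.21 (0.069), and without a filter the adjusted p of TUBB2A was 0.0503.

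TUBA1B differed by -0.19 (adjusted p = 0.025) and lost the call in 12 of 21 alternatives, with an adjusted p of 0.058 without siControl library 2, 0.054 and 0.066 without siTDP-43 libraries 1 and 3, 0.084 and 0.059 without wild type libraries 79 and 80, 0.084 and 0.056 without N352S libraries 81 and 82, and 0.16 with antisense rows added. TUBA4A differed by -0.62 (adjusted p = 0.048), and it met the minimum for testing only through the genotype libraries. Without siControl library 1, 2 or 3 its adjusted p was 0.059, 0.093 and 0.064. Without siTDP-43 library 1, 2 or 3 it was 0.076, 0.078 and 0.091. The difference was -0.6 and -0.64 without wild type library 79 or 80, and -0.51 without N352S library 81. With a pseudocount of 5 it was -0.19 (adjusted p = 0.099), and without a filter the adjusted p was 0.097.

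TUBB3 differed by 0.21 (adjusted p = 0.045). The adjusted p was 0.076, 0.053 and 0.065 without siControl libraries 1, 2 and 3, 0.07 and 0.074 without siTDP-43 libraries 2 and 3, 0.091 and 0.13 without wild type libraries 79 and 80, and 0.12 and 0.078 without N352S libraries 81 and 82. TUBA1A did not pass the test of the difference, and without siControl library 3 it did (-0.22; adjusted p = 0.025).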

How the results depend on the processing

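After knockdown, 8 tubulin genes were called lower in every fit that left out a library, 5 with median-of-ratios scaling, and 0 were called higher except for 1 with the quantile method. With the replicate block, which pairs the siRNA libraries by number, 7 were lower and no call but that of TUBA4A changed. Listed companion genes called higher were 3, but 8 with median-of-ratios scaling, 8 with the quantile method, 5 without mitochondrial genes and 1 to 4 with a library left out. In N352S, 1 tubulin gene was called lower, but 2 with a minimum of 5 TPM, the quantile method, mitochondrial genes left out or robust settings, 0 in a fit of only the groups compared and 1 to 2 with a library left out, and 0 to 1 was called higher with a library left out. Companion genes called higher in N352S were 7, 4 without a filter and 2 to 7 with a library left out, and those called lower were 8, or 4 to 10 with a library left out. Of the differences between effects, 1 was higher, 0 without a filter or without a trend, and 0 to 1 with a library left out, while 6 were lower, 2 without a filter and 2 to 6 with a library left out. The log2 difference of summed alpha-tubulin after knockdown was -0.208, and -0.122, -0.167 and -0.333 with median-of-ratios scaling, without mitochondrial genes and with the quantile method. That of beta-tubulin was -0.164, and -0.078 and -0.123 with the first and second of these. In N352S, alpha-tubulin gave -0.032, and 0.003 with median-of-ratios scaling and -0.091 with the quantile method, and beta-tubulin 0.013, and 0.048, 0.004 and -0.021 with the 3 methods in the order above. The cause of these shifts was not tested. Depth is unknown, so no counting error could be given for values near 1 TPM (TUBA1C and TUBA4A).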
